A study of Mus musculus with 2 samples.

Results

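The Rab GTPases, the largest branch of the Ras-like small G proteins, were described across both libraries of mouse macrophages grown from bone marrow. Members were every gene whose symbol was Rab followed by a number, with an optional letter and digit, and that had at least 1 annotated protein-coding transcript. The rule used names and annotation only, not expression, and it gave 59 genes among 55536 annotated genes, 21901 of them protein-coding. Their summed level was 3371 ± 6.34 TPM (a length-corrected share of all transcripts; SD, n = 2), and 31 of the 59 reached 10 TPM in both libraries. The endosomal and plasma membrane branches carried most of this level, while genes for regulated secretory granules held 0.246% of it.

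A Rab protein cycles between a GTP-bound form on a membrane, where it recruits effectors such as motors and tethers, and a GDP-bound form that a dissociation inhibitor holds in the cytosol. Exchange factors load GTP and GTPase-activating proteins end the signal, so each compartment carries its own set of active Rab proteins. In macrophages, Rab proteins drive phagosome maturation, receptor recycling, cytokine secretion and the delivery of Toll-like receptors, and transcript level is only 1 of the layers at which they are controlled.

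The cells were macrophages grown in culture from the bone marrow of C57BL/6J mice. According to the description field, every sample had 12 h of Lipid A, the part of bacterial lipopolysaccharide that Toll-like receptor 4 senses, at 100 ng/ml. After a washout of 12 h, Lipid A at 100 ng/ml was given again for 300 min. Another field calls the agent lipoprotein A, of type protein, and which name is right could not be settled. There was 1 group with 2 biological replicates, which carry the same donor identifier, so their spread may be smaller than that between animals. Sex and age were not collected and the developmental stage is unknown. No untreated sample was analysed here, so nothing below is a response to Lipid A, and no p-value was computed.

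Replicate 1 held 50503160 and replicate 2 held 46342327 rounded expected counts over all genes, and the biological coefficient of variation over all genes was 17.4%. All 8 macrophage markers exceeded 10 TPM in both libraries, Mertk being lowest at 82.6 and 74.4 TPM in replicates 1 and 2. The 8 neutrophil markers summed to 67.9 TPM in replicate 1 and 4.46 TPM in replicate 2, mostly S100a9 and S100a8, with Ly6g at 0 in both. Sums over mast cell and basophil, dendritic cell and fibroblast markers lay between 0.5 and 1.08 TPM, and B cell markers at 3.02 and 2.71 TPM in replicates 1 and 2. T cell markers summed to 43.3 and 40.2 TPM, nearly all of it Cd4 at 42.9 and 40.15 TPM, while Cd3d stood at 0.04 and 0 TPM. In these bulk samples, fewer cells of a type and less RNA per cell cannot be told apart.

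Rab proteins are held on membranes by geranylgeranyl lipids, which are attached to cysteines at or near the C terminus. Over the last 5 codons of the longest complete coding sequence, all 59 members had at least 1 cysteine codon, and 50 had 2 or more. The last 30 coding bases before the stop codon are shown for 5 members to make the kinds visible, from the GENCODE M21 transcripts, with the cysteine codons in capitals:
Rab7: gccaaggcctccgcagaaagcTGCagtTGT
Rab10: ggcgtgacgggctggaagagcaagTGCTGC
Rab20: cccaaacagactagatccgggTGTTGTgcc
Rab8a: aggaccagcttcttccggTGCagtctcctg
Rab8b: aagaccagtttcttccgcTGTtctctgctt

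Rab7 ends in 2 cysteines separated by 1 residue, a form found in 20 members, of which 5 reached 10 TPM in both libraries. Rab10 ends in an adjacent pair, a form found in 15 members, of which 13 reached 10 TPM. In Rab20, as in 15 members in all, 1 to 3 further codons follow the pair, and 8 of the 15 reached 10 TPM. Rab8a and Rab8b have a single cysteine codon followed by 3 others. This form was found in 9 members, of which 5 reached 10 TPM, and Rab18, Rab28 and Rab13 were the other three of those 5. In the whole family 31 of 59 reached 10 TPM, against 27.5% of protein-coding genes. Paralogs often share an ending, as the Rab3 and Rab27 genes do in the form of Rab7, so members of a form are not independent. These counts were made after the levels were known and describe the list only, and a link between ending and level was not tested.

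Levels within the family ran from no read to a mean of 359.9 TPM. At 100 TPM or more in both libraries stood 9 members, or 15.3%, against 5.45% of all protein-coding genes. At 10 TPM or more stood 31, or 52.5%, against 27.5% of protein-coding genes. Under 1 TPM in both libraries lay 18, or 30.5%, against 53.8% of protein-coding genes. The median over members was 10.9 TPM, against 0.305 TPM for protein-coding genes. The 4 highest members held 36.5% of the summed Rab level in replicate 1 and 36.6% in replicate 2, and the 20 highest held 87.6% and 86.7%. Among the 31 members at 10 TPM or more, neighbours in the order did not overlap between libraries in 10 of 30 pairs. No like share over other genes was computed, and with 2 libraries this count does not establish the order of those pairs. Among them, Rab11a over Rab10 turned when only protein-coding transcripts were counted, at 212 against 251 TPM. In the pairs that overlapped, the order does not exceed the spread, as with Rab14, Rab8a, Rab1a and Rab32, whose means lie between 161.9 and 172.6 TPM.

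**Figure D1:**
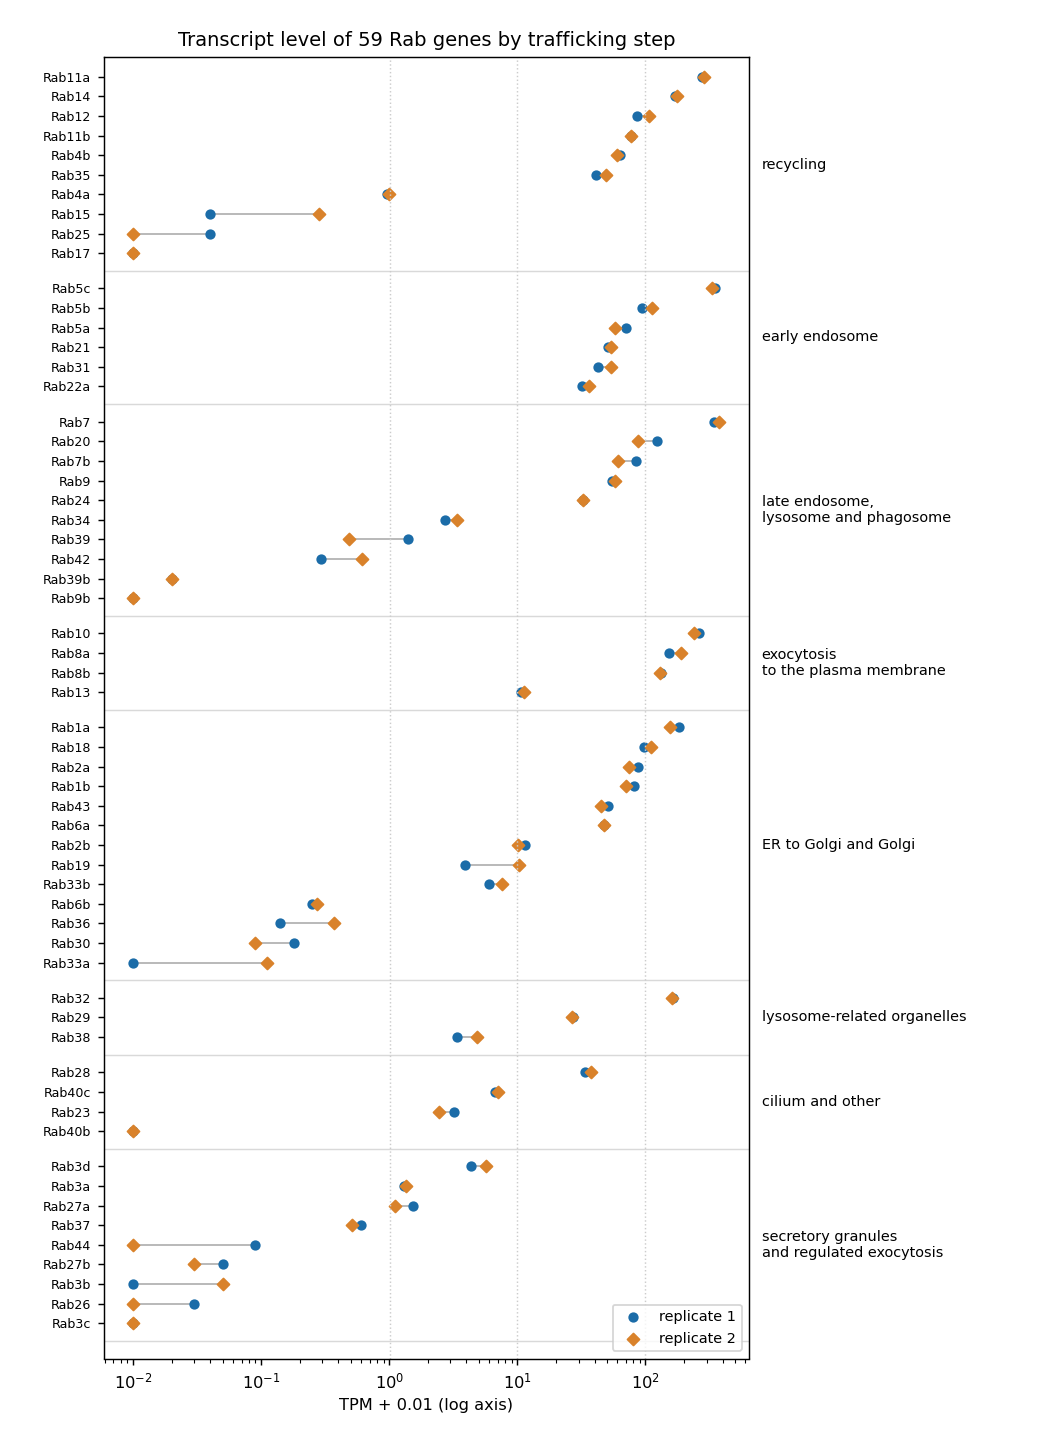
Level of each of the 59 Rab genes, as TPM plus 0.01 on a log axis, with circles for replicate 1 and diamonds for replicate 2, grouped by trafficking step in descending order of summed level. All 6 early endosome members lie above 10 TPM, and none of the 9 secretory granule members does.

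Recycling Rab genes together held the largest share of the family's TPM, 21.8% ± 0.838 (SD, n = 2), through 6 of their 10 members. From protein-coding transcripts of the GENCODE basic set alone, an alternative chosen after seeing the data, the share was 17.8% ± 0.990. Early endosome genes then held 21.3% ± 0.255, late endosome, lysosome and phagosome genes 20.4% ± 0.228, and ER and Golgi genes 17.8% ± 0.782. From all protein-coding transcripts, also chosen after seeing the data, recycling genes held 19.9% ± 0.280. Early endosome genes then held 20.6% ± 0.451 and late endosome, lysosome and phagosome genes 20.2% ± 0.124. The order of these steps thus depends on the transcripts counted. Rab11a, the Rab of the recycling endosome (mm10, chromosome 9, 64715299 to 64737758), stood at 278 TPM in replicate 1 and at 285 TPM in replicate 2, of which 222 and 202 TPM came from protein-coding transcripts and 121 and 143 TPM from those of the basic set. Rab14, which works between the trans-Golgi network, early endosomes and phagosomes, stood at 169 and 176 TPM in replicates 1 and 2. Rab12, which acts in the degradation of the transferrin receptor, followed at 85.2 and 107 TPM. Each of these 3 members differed by less than 1.5-fold between libraries. Rab11b was level in both libraries at 76.9 and 77.3 TPM, the fast-recycling gene Rab4b stood at 63.1 and 60.3 TPM, and Rab35, a Rab of fast recycling and cell division, at 40.8 and 49.3 TPM. The other 4 recycling members lay under 1 TPM. They were Rab4a at 0.94 and 0.98 TPM, Rab15 with 1 and 16 reads, and the epithelial genes Rab25, with 1 and 0 reads, and Rab17, with none.

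Early endosome Rab genes were the one endosomal step in which every member was well expressed, all 6 at 10 TPM or more, and they held 19.1% ± 0.152 of the family's TPM. Rab5c, one of the 3 Rab5 genes that direct fusion of early endosomes and young phagosomes (chromosome 11, 100715009 to 100738215), reached 347 TPM in replicate 1 and 333 TPM in replicate 2. Rab5b stood at 94.8 and 112 TPM in replicates 1 and 2, and Rab5a at 70.5 and 58.3 TPM. Rab21, which carries integrins into the cell, stood at 51.3 and 53.3 TPM. Rab31 and Rab22a, relatives of Rab5 that act between the Golgi and endosomes, were lowest, at 42.6 and 54.1 TPM for Rab31 and at 32.1 and 36 TPM for Rab22a.

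Rab genes of late endosomes, lysosomes and phagosomes held 18.7% ± 0.392. Rab7, which governs the passage from early to late endosome and fusion with lysosomes (chromosome 6, 87999106 to 88045270), was the highest member of the family by its mean, with 341 TPM in replicate 1 and 379 TPM in replicate 2. Its range overlapped that of Rab5c, so the order of these leaders does not exceed their spread. Rab20, a Rab of phagosome maturation, stood at 122 and 87.1 TPM in replicates 1 and 2, the widest spread among the 10 highest members with a coefficient of variation of 23.9%. Rab7b, which returns cargo from late endosomes to the trans-Golgi network, varied in the same direction, at 84.0 and 61.6 TPM. Rab9, which recycles mannose 6-phosphate receptors to the Golgi, stood at 54.6 and 58.3 TPM, and the autophagy-linked Rab24 at 32.6 and 32.2 TPM. The 5 other members were low. Rab34, linked to macropinocytosis and lysosome position, stood at 2.73 and 3.37 TPM, Rab39 at 1.39 and 0.47 TPM, Rab42 at 0.28 and 0.6 TPM, Rab39b had 1 read in each library and Rab9b had none.

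The 4 Rab genes of exocytosis to the plasma membrane all reached 10 TPM and held 16.8% ± 0.205. Rab10, which carries Toll-like receptor 4 and other cargo to the cell surface, stood at 262 TPM in replicate 1 and at 239.7 TPM in replicate 2, from the largest number of reads of any member, 30948 and 25838. Rab8a, a Rab of post-Golgi secretion and of primary cilia (chromosome 8, 72161200 to 72183904), stood at 153 and 190.3 TPM in replicates 1 and 2, but its coding transcripts only at 46.1 and 57.5 TPM. Its paralog Rab8b (chromosome 9, 66843664 to 66919687) stood at 133 and 129 TPM. Rab13, a Rab of tight junctions in epithelia, was far lower at 10.6 and 11.2 TPM.

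ER and Golgi Rab genes held 16.3% ± 0.817, through 7 of 13 members at 10 TPM or more. Rab1a, which moves vesicles out of the ER, led with 182 TPM in replicate 1 and 157 TPM in replicate 2, ahead of Rab18, a Rab of the ER and lipid droplets, at 98.2 and 109.6 TPM. The next members were Rab2a, which acts between the ER and the Golgi, at 87.5 and 73.8 TPM, and Rab1b at 81.2 and 70.7 TPM. Rab43 stood at 51.4 and 45.1 TPM, and the retrograde Golgi gene Rab6a at 47.6 and 47.2 TPM. Rab2b was just past the line at 11.5 and 10.1 TPM, and Rab19 crossed it in 1 library, at 3.89 and 10.4 TPM. Rab33b, which binds the autophagy protein Atg16l1, stood at 5.95 and 7.63 TPM. Rab6b at 0.24 and 0.26 TPM, Rab36 at 0.13 and 0.36 TPM and Rab30 at 0.17 and 0.08 TPM lay under 1 TPM in both libraries, as did Rab33a with 0 and 3 reads.

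Of the lysosome-related organelle Rab genes, Rab32 stood apart at 164 TPM in replicate 1 and at 160.05 TPM in replicate 2. Rab32 and Rab38 act in melanosome formation, and Rab32 restricts intracellular bacteria in mouse macrophages. Rab38 stood at 3.36 and 4.79 TPM in replicates 1 and 2, and Rab29, which recruits the kinase Lrrk2 to membranes, at 27.2 and 26.6 TPM. Of the cilium and other members, Rab28 stood at 33.8 and 37.5 TPM and Rab40c, part of a ubiquitin ligase, at 6.64 and 7.08 TPM. Rab23, a brake on Hedgehog signalling, stood at 3.17 and 2.43 TPM, and Rab40b had no read.

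Secretory granule Rab genes held only 0.246% ± 0.0167 of the family's TPM. None of the 9 members reached 10 TPM in both libraries, against 27.5% of protein-coding genes. Under 1 TPM in both libraries lay 6, against 53.8% of protein-coding genes. These counts rest on 9 genes and the differences were not tested. Rab3d, a granule Rab of exocrine and other secretory cells, was highest at 4.35 TPM in replicate 1 and at 5.68 TPM in replicate 2. Rab3a, the synaptic vesicle Rab, stood at 1.28 and 1.35 TPM in replicates 1 and 2, and Rab27a, which docks lytic granules and melanosomes, at 1.51 and 1.1 TPM. Rab37, a granule Rab of mast cells, stood at 0.59 and 0.5 TPM from 42 and 32 reads. Rab44 had 7 and 0 reads, Rab27b 7 and 4, Rab26 1 and 0, Rab3b 0 and 1, and Rab3c none. Neutrophil markers were also higher in replicate 1, and their part in the levels of Rab27a, Rab37 and Rab44 was not tested. The 4 members with no read by expected counts in either library were Rab17, Rab40b, Rab3c and Rab9b. Each could have had up to 3 reads, counting error only. That is 0.0594 CPM (reads scaled to the library total, without length) in replicate 1 and 0.0647 CPM in replicate 2.

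**Figure D2:**
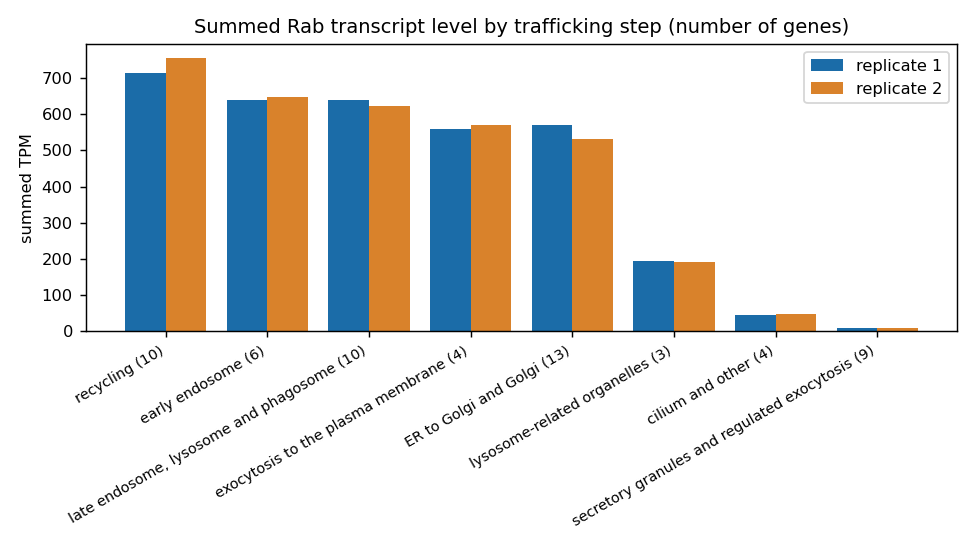
Summed TPM of the Rab genes of each trafficking step, with 1 bar for each replicate and the number of genes in brackets. Recycling genes sum to 714 and 756 TPM in replicates 1 and 2, and secretory granule genes to 7.87 and 8.69 TPM.

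Most Rab genes have paralogs, and in these macrophages the same paralog usually led its family in both libraries. The others could still be well expressed, as Rab5c held 67.8% and 66.2% of its family's TPM in replicates 1 and 2. Rab1a held 69.1% and 68.9% of its own. In 15 of 16 paralog families the same member led in both libraries, and in 13 the leader exceeded the runner-up by at least 1 on the log2 scale of TPM plus 1 in both. In the second quantification, a further deposited table of transcript levels, this held for 12, since Rab27a over Rab27b was 0.94 and 0.67 there in replicates 1 and 2. Rab6a exceeded the brain-enriched Rab6b by 5.27 ± 0.02, Rab4b exceeded Rab4a by 5.0 ± 0.07, and Rab9 exceeded Rab9b by 5.84 ± 0.07, the last set by the pseudocount since Rab9b had no read. Rab6b and Rab4a also lay under 1 TPM. With a pseudocount of 0.1 TPM the gaps of Rab6a, Rab4b and Rab9 were 7.08, 5.87 and 9.14. Smaller gaps were those of Rab2a over Rab2b at 2.79 ± 0.05, Rab32 over Rab29 at 2.54 ± 0.00, and Rab11a over Rab11b at 1.85 ± 0.02. Rab7 exceeded Rab7b by 2.31 ± 0.42, Rab5c exceeded Rab5b by 1.71 ± 0.21, and Rab1a exceeded Rab1b by 1.14 ± 0.01. Among low families, Rab33b led Rab33a by 2.88 ± 0.12, Rab40c led Rab40b by 2.97 ± 0.06, Rab3d led Rab3a by 1.37 ± 0.20 and Rab27a led Rab27b by 1.16 ± 0.16. The size of these gaps depends on the pseudocount, and with 0.1 TPM in place of 1 TPM they were 5.60, 6.12, 1.84 and 3.42. These differences are of levels within a library, not of conditions.

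The families without a clear leader were Rab8, Rab22a with Rab31, and Rab39 with Rab42. Rab8a exceeded Rab8b by 0.38 ± 0.25 in log2 level, and Rab31 exceeded Rab22a by 0.49 ± 0.12. By expected counts, which are not corrected for length, Rab8b and Rab22a led instead. Rab39 led Rab42 in replicate 1 by 0.90, whereas in replicate 2 the difference was -0.12, so the leader by TPM was not the same. By expected counts Rab39 led in both libraries, with 137 and 42 reads against 5 and 10 for Rab42 in replicates 1 and 2. Coding sequences within a family were 57.2% to 78.4% identical, the closest being Rab6a and Rab6b, with Rab8a and Rab8b next at 77.4%. The deposited posterior SD of the count, a measure of reads that fit several genes, was 0 in both libraries for 43 of 59 members. It was largest for Rab43, at 74.1 reads of 7719 in replicate 1 and 80.2 of 6165 in replicate 2.

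**Figure D3:**
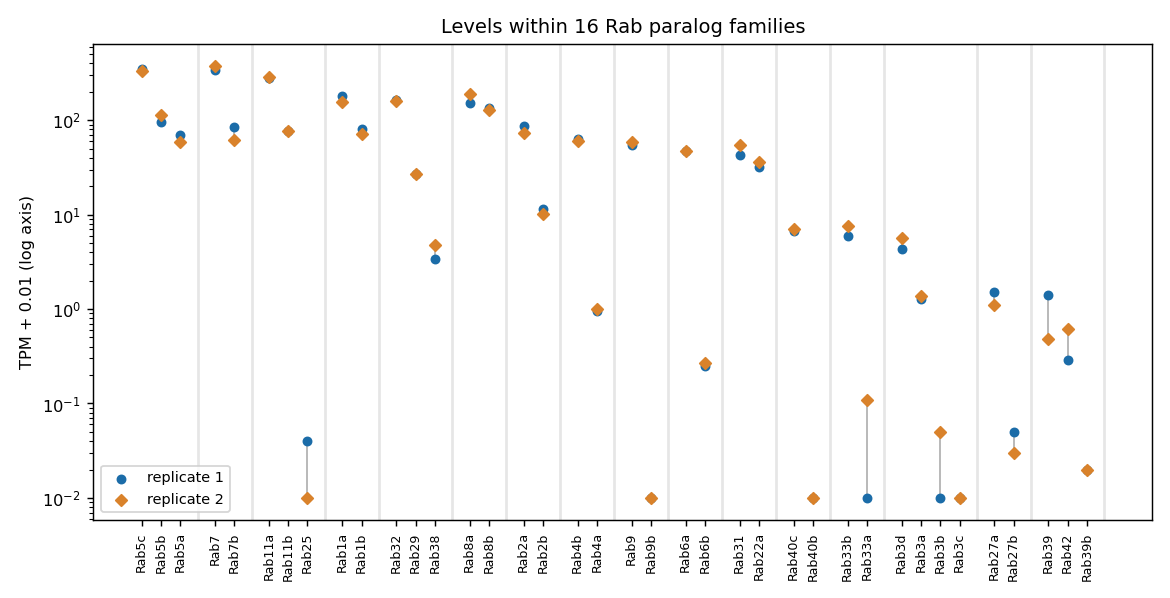
Level of each member of the 16 paralog families, as TPM plus 0.01 on a log axis, with circles for replicate 1 and diamonds for replicate 2 and the highest member of each family at its left. The Rab8 pair and the pair of Rab31 and Rab22a lie close together, whereas Rab4b, Rab6a and Rab9 lie far above their paralogs.

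Transcript makeup changed how the levels of Rab8a and Rab11a read. Of the 40 members at 1 TPM or more in both libraries, 32, or 80%, had a leading transcript with at least 60% of the gene's TPM in both, against 66.2% of protein-coding genes at that level. Both shares include genes with 1 annotated transcript, which pass by annotation alone. There were 5 such members, and of the 35 others 27 passed. By the mean share of both libraries, Rab8a was the one member led by a non-coding entry. In Rab23 the non-coding Rab23-210 led in replicate 1, with 39.4% against 30.5% for the coding Rab23-201, and not in replicate 2, with 25.8% against 35.2%, and it led in the second quantification, with 34.4%. Rab8a-202, a retained-intron transcript of 542 nt, held 69.8% ± 0.296 of the gene's TPM, yet it received 1086 reads in replicate 1 and 1247 in replicate 2. The coding transcript Rab8a-201, of 4550 nt, received 7169 and 8175 reads in replicates 1 and 2, which its length turns into 46.1 and 57.5 TPM. The share of Rab8a in TPM thus rests on a short entry, while the share in reads rests on the long coding one.

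Rab11a showed the same pattern over several entries. Its TPM was spread over Rab11a-206, of 462 nt, at 19.0% in replicate 1 and 34.6% in replicate 2, Rab11a-201, of 595 nt, at 32.0% and 13.3%, and the non-coding Rab11a-203, of 397 nt, at 20.1% and 17.1%. The 2336-nt coding transcript Rab11a-208 held 17.5% and 13.2% of the TPM but 3656 of 5839 reads in replicate 1 and 2592 of 4596 in replicate 2. No entry led in both libraries, and the gene total was steadier than its parts. For Rab11b, 28.3% ± 2.68 of the TPM came from the nonsense-mediated decay entry Rab11b-204. Rab35 had a non-coding share of 11.3% in replicate 1 and 34.2% in replicate 2, and Rab23 one of 69.5% and 64.8% over all its non-coding entries.

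Counting only protein-coding transcripts of the GENCODE basic set left 89.2% of the summed Rab level. Of the 31 members with a mean of 10 TPM or more, 25 kept at least 90% of their level and 2 kept less than 50%. Those 2 were Rab8a, which stood at 51.8 ± 8.10 TPM, and Rab11a, at 132 ± 15.2 TPM (SD, n = 2). In the second quantification the same transcripts gave 49.8 TPM for Rab8a and 86.5 TPM for Rab11a, so the coding level of Rab11a is the less certain. The basic set also leaves out the coding entry Rab11a-201, and all protein-coding transcripts of Rab11a together gave 212 ± 14.4 TPM. On this scale Rab8b exceeded Rab8a, with a log2 difference of Rab8a over Rab8b of -1.33 ± 0.25. The order of the Rab8 pair therefore turned with the transcripts that were counted, while Rab11a still exceeded Rab11b by 1.245 ± 0.215. Rab7, Rab5c and Rab10 became the 3 highest members, at 349, 339.9 and 251 TPM.

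**Figure D4:**
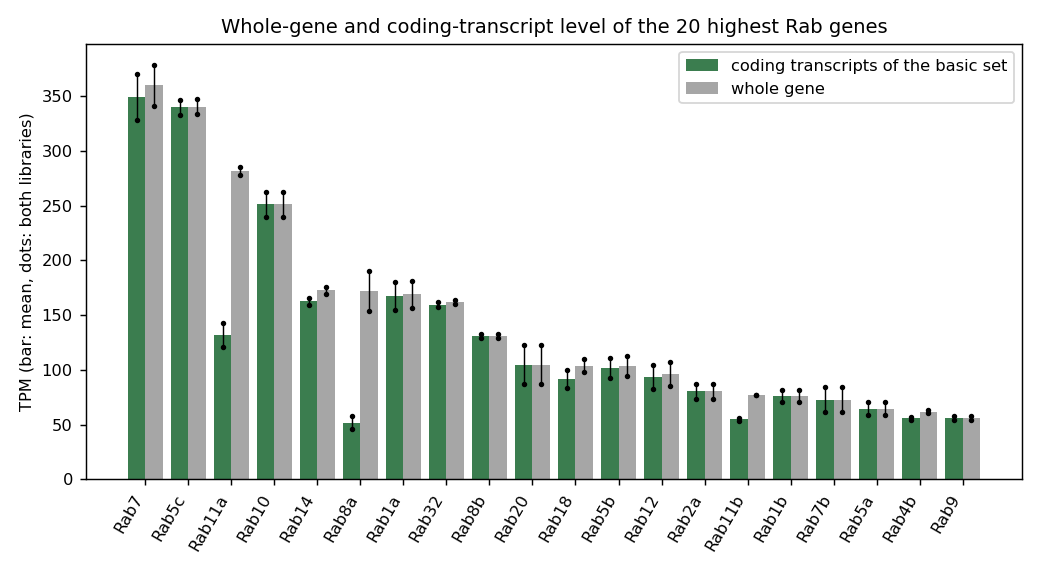
Level in TPM of the 20 highest Rab genes from protein-coding transcripts of the GENCODE basic set (green) and from the whole gene (grey), with bars for the mean of both libraries and dots for each library. The bars of Rab8a and Rab11a differ most, and those of Rab10, Rab8b and Rab20 are equal.

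Rab6a is made in forms that differ by a mutually exclusive exon, known as Rab6A and Rab6A', and both were present. The coding sequences of Rab6a-201 and Rab6a-202 have 624 nt each and differ at 30 bases, all within the stretch from base 178 to base 285. That stretch is shown with the differing bases in capitals, since it tells the forms apart:
Rab6a-201: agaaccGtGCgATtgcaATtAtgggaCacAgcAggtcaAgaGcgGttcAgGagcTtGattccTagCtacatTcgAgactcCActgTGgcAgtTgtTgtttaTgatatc
Rab6a-202: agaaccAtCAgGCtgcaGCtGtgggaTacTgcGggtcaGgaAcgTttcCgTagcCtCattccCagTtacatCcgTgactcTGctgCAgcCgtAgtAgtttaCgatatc

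Rab6a-203, which starts its coding sequence further downstream, holds the stretch of Rab6a-202. Transcripts with that stretch stood at 29.5 TPM in replicate 1 and at 30.55 TPM in replicate 2, against 17.6 and 15.2 TPM for Rab6a-201. The stretch of Rab6a-202 was thus the more abundant in both libraries, with 30.01 ± 0.764 TPM against 16.4 ± 1.68 TPM (SD, n = 2). Most of this came from Rab6a-203, with a mean of 28.3 TPM and a coding sequence of 525 nt. Rab6a-202 itself had a mean of 1.715 TPM, so between the coding sequences of 624 nt Rab6a-201 was the higher. The gene overlaps Mrpl48 on the opposite strand, which stood at 32.6 and 38.6 TPM in replicates 1 and 2. How strand was handled is not given, and reads from such overlaps may be assigned to either gene. The same holds for Rab24 with Prelid1 at 161 and 161 TPM, Rab2b with Tox4 at 48.9 and 55.2 TPM, and Rab3a with Mpv17l2 at 28.3 and 22.7 TPM. In Rab3a the neighbour is far more abundant than the Rab gene itself. The antisense gene Rab10os stood at 16.1 and 16.5 TPM, and Rab26os at 5.07 and 10.96 TPM from 15 and 24 reads beside a Rab26 with 1 and 0 reads.

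The promoters of the expressed members were rich in CpG, the dinucleotide typical of broadly used promoters. RefSeq promoters (GRCm38.p6, 250 bases before to 50 after the start) were matched to 46 of 59 members. The 28 matched members at 10 TPM or more had a median of 24.5 CpG in 300 bases, against 22 over the 4441 protein-coding genes at that level. The 9 matched members under 1 TPM had a median of 11, against 6 over 6542 protein-coding genes. The observed over expected CpG ratio, which allows for base composition, had a median of 0.759 in the expressed members, against 0.804 over protein-coding genes at that level. In the members under 1 TPM it was 0.591, against 0.323. The CpG counts of the 2 Rab groups overlapped widely, since Rab6b at 0.24 and 0.26 TPM had 42 CpG and Rab9 only 9. Rab10, with 43 CpG and 251 ± 15.99 TPM (chr12:3309920-3310219, minus strand), and Rab42, with 6 CpG and 0.44 ± 0.226 TPM (chr4:132303307-132303606, minus strand), are shown as the ends of this range, with CpG in capitals. Rab35 also had 43 CpG. The promoters of Rab10 and Rab42 read:
Rab10: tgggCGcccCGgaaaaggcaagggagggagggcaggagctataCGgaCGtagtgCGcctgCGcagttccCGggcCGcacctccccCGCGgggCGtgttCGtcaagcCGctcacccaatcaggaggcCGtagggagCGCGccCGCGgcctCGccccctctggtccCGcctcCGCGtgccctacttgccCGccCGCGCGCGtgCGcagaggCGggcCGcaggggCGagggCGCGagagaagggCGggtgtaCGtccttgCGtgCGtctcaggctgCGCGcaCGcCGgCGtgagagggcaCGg
Rab42: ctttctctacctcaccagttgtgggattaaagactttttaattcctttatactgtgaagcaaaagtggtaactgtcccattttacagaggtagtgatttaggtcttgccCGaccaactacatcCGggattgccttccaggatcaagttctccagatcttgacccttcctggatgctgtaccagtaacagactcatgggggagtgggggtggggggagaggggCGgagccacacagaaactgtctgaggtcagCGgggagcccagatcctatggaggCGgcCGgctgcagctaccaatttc

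The E-box CACGTG, a palindrome that reads the same on both strands, was present in the promoters of Rab20, Rab5a, Rab21, Rab24 and Rab23, or 10.9%, against 8.65% of protein-coding promoters. A match of letters is a description of the window and shows no binding.

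Rab genes differed little between the libraries, with a median absolute log2 ratio of 0.19, against 0.21 over all genes. After the filter on low counts, 45 members and 12543 genes in all could be compared, and the 14 members left out had at most 16 reads in a library. Of the 45, 42, or 93.3%, lay within 1.5-fold, against 86.8% of all genes. All genes were not matched to the members by count, and the spread of all genes was narrower at higher counts. Whether the members differ from genes of like count was not tested. At 2-fold or more apart were 2 members, or 4.44%, against 4.21% of all genes, a share near the background. Rab39 (chromosome 9, 53684110 to 53706232), whose human counterpart binds caspase-1, had 137 reads in replicate 1 and 42 in replicate 2, a log2 ratio of 1.58, on the side where 1.91% of all genes lay. Rab19 (chromosome 6, 39381175 to 39390380) had 185 reads in replicate 1 and 452 in replicate 2, a log2 ratio of -1.40, on the side where 2.3% of all genes lay. The exact 95% counting intervals of these ratios of CPM were 2.10 to 4.34 for Rab39 and 0.315 to 0.447 for Rab19. At a mean count of 100 or more, Rab19 alone remained past 2-fold, against 1.93% of all genes. Without any filter 10 members did, against 27.8% of all genes. With 1 library on each side these values have no replicate check.

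**Figure D5:**
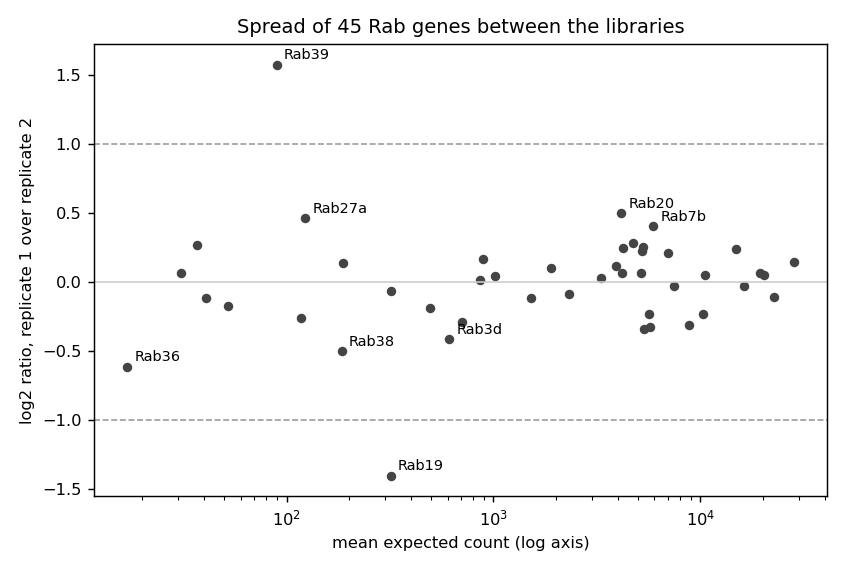
Log2 ratio of replicate 1 over replicate 2 for the 45 Rab genes that passed the filter on low counts, against the mean expected count on a log axis, with dashed lines at a 2-fold difference. Only Rab39 and Rab19 lie outside the lines, and Rab20 at 0.50 and Rab7b at 0.41 are the widest among the abundant members.

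The median log2 ratio of the members was 0.05, against 0.00 over all genes. Among abundant members Rab20 leaned toward replicate 1, at 0.50, with Rab7b at 0.41. Toward replicate 2 leaned Rab31 at -0.34, Rab12 at -0.32 and Rab8a at -0.31. Summed neutrophil markers and Rab39 were both higher in replicate 1, and a part of other cells in this value was not tested.

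The proteins that load, unload and anchor Rab GTPases were measured in the same libraries. Of the 8 genes of Rab prenylation and recycling, all reached 1 TPM and 5 reached 10 TPM. Gdi2, the dissociation inhibitor that keeps Rab proteins soluble, stood at 455 TPM in replicate 1 and at 342 TPM in replicate 2, above any Rab gene in replicate 1 but below Rab7 in replicate 2. The prenylated Rab acceptor Rabac1 stood at 53.3 and 38.1 TPM in replicates 1 and 2, and Chml, an escort protein for prenylation, was lowest at 2.19 and 1.95 TPM. Of 35 exchange factors, 21 reached 10 TPM. They were led by Ccz1, part of the exchange factor for Rab7, at 84.1 and 76.4 TPM, the Rab5 exchange factor Rin2 at 67.9 and 78.7 TPM, and Dennd1a, which acts on Rab35, at 49.8 and 55.9 TPM, with Dennd3, which acts on Rab12, lowest at 0.06 and 0.07 TPM.

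Of 32 GTPase-activating proteins, 13 reached 10 TPM. Tbc1d13, which acts on Rab35, led at 184 TPM in replicate 1 and at 186 TPM in replicate 2, followed by Tbc1d2b at 47.6 and 43.3 TPM and Tbc1d1 at 39.0 and 51.8 TPM, and Sgsm1 was listed at 0 TPM. Of 38 effectors, 19 reached 10 TPM, led by Rilpl2 at 134 and 149.96 TPM, which binds phosphorylated Rab8a and Rab10. The motor Myo5a stood at 123 and 97.0 TPM, the phosphatase Inpp5b at 55.7 and 70.0 TPM, and the granule effector Sytl5 was listed at 0 TPM. Lrrk2, the kinase that phosphorylates Rab8a, Rab10 and Rab29, stood at 2.12 and 1.53 TPM, its relative Lrrk1 at 13.5 and 11.0 TPM, and Ppm1h, a phosphatase for the same Rab proteins, at 59.5 and 87.9 TPM. Of the 116 genes of these 5 lists, 101 passed the filter on low counts and 0 were 2-fold apart between libraries, against 4.21% of all genes. Beside the Rab median of 10.9 TPM, the 26 Arf and Arl GTPases had one of 38.3 TPM, led by Arf1 at 401 and 422 TPM, Arf4 at 274 and 320.1 TPM and Arl5c at 208 and 270.03 TPM, with Arl14 lowest at 0.03 TPM in both. These lists differ in size and choice, and the differences were not tested.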

How the data were processed

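PolyA-selected RNA from whole-cell extracts was measured in 2 libraries of 1 group. The authors deposited, per the file headers, gene and transcript tables with expected counts, TPM and a posterior SD of the count, on mm10 with GENCODE M21 per the README of each sample. A further deposited transcript table holds estimated counts and TPM and is called the second quantification. For aligner, quantifiers and strand handling, nothing is given in the sources used here. Levels are the deposited gene TPM. Expected counts were rounded, and entries that name no gene, 0.0631% and 0.0676% of counts in replicates 1 and 2, were left out.

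Counts were scaled with TMM factors after filterByExpr in edgeR 4.0.16 under R 4.3.3, with a prior count of 0.5 in log2 CPM. The code for ratios was tested on simulated data. Alternative size factors came from DESeq2 1.42.0. Log2 levels used a pseudocount of 1 TPM, with 0.1 TPM as an alternative, and leading transcripts were set at 60%. Coding ends and identities (global alignment, Biopython 1.88) used the longest complete coding sequence of the GENCODE basic set. Tables, exact intervals and plots were made in Python 3.11.15 (matplotlib 3.10.9, SciPy 1.17.1, NumPy 2.4.6, pandas 2.3.3).

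The members, the trafficking steps and the other lists were chosen with earlier results of these data known. The steps are textbook assignments, and a Rab protein may act at several. Any member could be named; of every other list the 3 highest genes and the lowest were named, except items that are not reported here. With 1 group there was no test, and SDs cover 2 libraries that share a donor identifier. Exact 95% intervals and limits at 0 reads cover counting error only, as reads are not molecules. Protein sequences were not used here.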

Additional observations from a re-analysis of the deposited data

How the results depend on the processing

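No count of members at 10 or 100 TPM or more, or under 1 TPM, moved by more than 1.5 times under any alternative run. Runs that left out a replicate were included. The count at 100 TPM or more, 9 in the main run, was 12 without replicate 1 and 10 without replicate 2. It was 11 with TPM scaled over protein-coding genes alone and 8 from protein-coding transcripts of the basic set. The median level, 10.9 TPM, was 11.1 TPM in the second quantification, 11.7 TPM with TPM scaled over protein-coding genes alone, 11.19 to 11.49 TPM without either replicate, and 54.4 TPM over members at 1 TPM or more alone. The summed level, 3371 TPM, was 3249 TPM in the second quantification, 3605 TPM over protein-coding genes alone and 3006 TPM from protein-coding transcripts of the basic set. The number of members 2-fold or more apart, 2, was 10 without a filter on low counts, where 27.8% of all genes were, and 1 (Rab19) among genes whose mean count was at least 100, where 1.93% were. The gap of Rab8a over Rab8b reversed to -1.33 with coding transcripts of the basic set, an alternative chosen after seeing the data, because most of the TPM of Rab8a belongs to a non-coding entry. With the same transcripts, recycling genes no longer held the largest share, at 17.8%. Early endosome genes held 21.3%, and late endosome, lysosome and phagosome genes 20.4%. Gaps over a runner-up under or near 1 TPM grew most with a pseudocount of 0.1 TPM. The leading members of the 16 families were the same in the second quantification, but Rab27b stood at 0.03 TPM in the first and at 0.264 and 0.269 TPM in replicates 1 and 2 of the second. Rab3c and Rab9b had no read in the first. In the second, Rab3c stood at 0.0686 and 0.0179 TPM in replicates 1 and 2, and Rab9b at 0.00663 and 0 TPM. None of the 45 members compared crossed the 2-fold line with DESeq2 size factors or the second quantification. With the second, the largest shift of a log2 ratio was 0.36, in Rab36, and Rab29 and Rab4a changed sign near 0. Over the 40 members with a mean of 1 TPM or more, the second level was 0.876 to 1.14 times the first. Without 1 replicate, no spread can be given. No paired analysis was possible because there is 1 group.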
